A study of Mus musculus with 4 samples.

Results

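MHC class I antigen presentation is represented here by 10 genes, chosen by symbol as parts of the pathway: the heavy chains H2-K1, H2-D1 and H2-T23, the light chain B2m, the transporter genes Tap1 and Tap2, the chaperone Tapbp, the immunoproteasome genes Psmb8 and Psmb9, and the activator Nlrc5. All 10 are among the 14123 genes listed at 7 days post-injury (dpi), and 7 are among the 11470 listed at 21 dpi. H2-K1, Tap1 and Psmb9 are not listed at 21 dpi. The study sequenced RNA from about 4 mm of spinal cord at the site of a 50 kdyne contusion at T9. The animals were male targeted replacement mice, 3-5 months old by the methods, in which human APOE stands in place of mouse Apoe. The 4 groups are ApoE3 at 7 dpi, ApoE4 at 7 dpi, ApoE3 at 21 dpi and ApoE4 at 21 dpi, with 3 mice each by the paper and 1 deposited value per gene and group. No uninjured group is among them.

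With 1 value per group there is no replicate check, so every difference below is a description. Levels are FPKM, a read density per length of transcript, which allows levels of different genes to be set side by side. The column headers and the row names of the table disagree on which value is ApoE3. The row names, which the study also follows, are used here, and under the headers every genotype direction below would be the opposite.

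Nucleated cells show peptides from their cytosol to CD8 T cells on class I molecules, each a polymorphic or non-classical heavy chain bound to beta2-microglobulin. Proteasomes cut the peptides, TAP carries them into the endoplasmic reticulum, and tapasin with calreticulin and ERp57 helps load them. Interferons raise most of these genes, NLRC5 acts at their promoters, and in the healthy spinal cord class I is low on neurons and glia and rises on microglia and infiltrating myeloid cells after injury.

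The tissue label fits the markers. In ApoE3 at 7 dpi the oligodendrocyte gene Mbp stood at 120571 FPKM, the astrocyte gene Gfap at 12395 and the neuronal gene Snap25 at 3366. In the same group the macrophage gene Lyz2 stood at 4522, so myeloid transcripts stood beside neural ones. In such bulk RNA, fewer cells of a type and less RNA per cell cannot be told apart.

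The heavy chains bind the peptide and face the T cell receptor. H2-K1 and H2-D1 are classical chains, and H2-T23 encodes Qa-1, a non-classical chain that engages receptors of NK cells. H2-K1 was the most abundant member, at 4719 FPKM in ApoE3 and 5107 in ApoE4 mice at 7 dpi. That is a level 10.04 times that of B2m in ApoE3 and 10.17 times in ApoE4, and 22.9 times that of H2-D1 in ApoE3. The level of a classical heavy chain so far above the light chain and the other classical chain is the largest gap among the members, and its origin was not tested.

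H2-D1 stood at 206 FPKM in ApoE3 and 232 in ApoE4 mice at 7 dpi, and at 145 and 208 at 21 dpi. H2-T23 stood at 179 in ApoE3 and 166 in ApoE4 at 7 dpi, and at 114 and 168 at 21 dpi. At 7 dpi the genotypes lie close together for all 3 chains, and at 21 dpi ApoE4 is the higher group for H2-D1 and H2-T23. Since class I loci are close copies of each other, reads may be shared between them. Of the distinct stretches of 100 bases, the read length, in protein-coding transcripts of GENCODE M21, 4.09% of those of H2-D1 and 7.28% of those of H2-T23 occur unchanged in a transcript of another gene. For H2-K1 the share is 0%.

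B2m, the light chain common to all these molecules, stood at 469.9 FPKM in ApoE3 and 502 in ApoE4 mice at 7 dpi, and at 307 and 472 at 21 dpi. The ratio of H2-D1 to B2m, taken within a group and so free of any scaling between groups, was 0.438 in ApoE3 and 0.462 in ApoE4 at 7 dpi. At 21 dpi it was 0.473 and 0.441. The ratio of H2-T23 to B2m was 0.382 and 0.331 at 7 dpi and 0.371 and 0.355 at 21 dpi. H2-D1 thus stayed near the same proportion of B2m in all 4 groups, H2-T23 varied more, and H2-K1 has no ratio at 21 dpi.

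**Figure D1:**
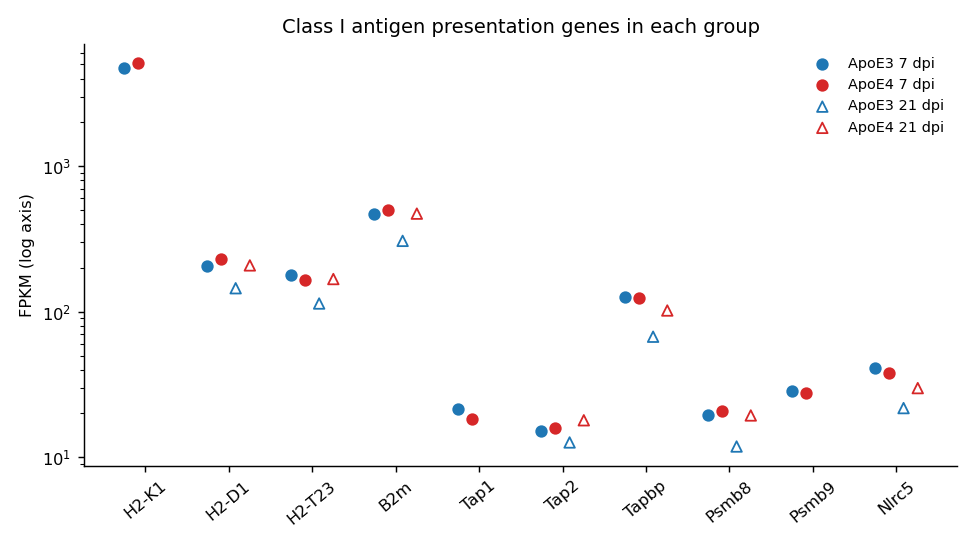
FPKM of the 10 genes in each group on a log axis. Circles are 7 dpi and triangles 21 dpi, blue ApoE3 and red ApoE4. H2-K1, Tap1 and Psmb9 have no value at 21 dpi.

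The upstream stretches of the 3 genes at the centre of the complex are shown because H2-K1, H2-D1 and B2m differed little between the genotypes at 7 dpi, in the same direction. They come from RefSeq windows on GRCm38.p6 that run from 250 bases before to 50 after a start site, and 8 of the 10 members matched. Tap2 and Nlrc5 have no entry. Capitals mark the matches, each searched on both strands: the kappa B letters GGGATTCCC, the class I interferon response letters TTTCACTTC, the ISRE letters GAAANNGAA, and TGACG followed 20 to 30 bases on by ATTGG, as in the X2 and Y boxes of the enhanceosome where NLRC5 acts. No match overlaps another. H2-K1 is chr17:34000349-34000467 on the minus strand, H2-D1 chr17:35262914-35263032 on the plus strand and B2m chr2:122147538-122147648 on the plus strand.
H2-K1: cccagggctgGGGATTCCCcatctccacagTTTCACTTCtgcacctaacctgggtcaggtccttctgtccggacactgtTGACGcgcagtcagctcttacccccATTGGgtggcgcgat
H2-D1: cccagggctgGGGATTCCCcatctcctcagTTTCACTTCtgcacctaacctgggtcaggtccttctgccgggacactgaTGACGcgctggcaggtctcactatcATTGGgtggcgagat
B2m: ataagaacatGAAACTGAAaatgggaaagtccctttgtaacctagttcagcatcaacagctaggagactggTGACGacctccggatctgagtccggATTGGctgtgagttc

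The H2-K1 and H2-D1 stretches agree at 107 of 119 aligned positions, or 89.9%, and hold the same 3 kinds of match in the same order. B2m shares with them the X2 and Y pair, and has an ISRE match where they have the class I interferon response letters. Over all 32851 promoter windows, 0.353% hold the kappa B letters, 0.505% the class I interferon response letters, 8.56% the ISRE letters and 0.435% the X2 and Y pair. H2-T23 has 1 ISRE match and none of the others, and no match was found in the windows of Tapbp, Tap1, Psmb9 and Psmb8. A match describes letters and not a bound site.

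**Figure D2:**
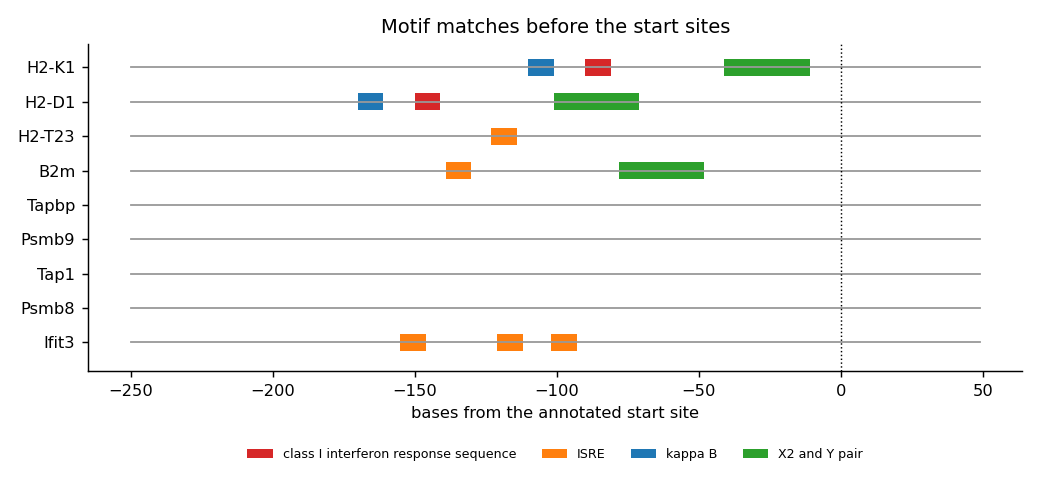
Matches along the promoter window of each of the 8 members with an entry and of the interferon stimulated gene Ifit3, by distance from the annotated start site. For H2-K1 the first of its 2 annotated start sites is drawn.

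Tap1 and Tap2 encode the subunits of the peptide transporter. Tap1 stood at 21.6 FPKM in ApoE3 and 18.3 in ApoE4 mice at 7 dpi. Tap2 stood at 15.2 and 16.0 at 7 dpi, and at 12.6 and 18.0 at 21 dpi. The transporter genes were the lowest members beside the immunoproteasome genes, with Tap1 at 1.42 times the level of Tap2 in ApoE3 and 1.15 times in ApoE4. Tap1 had the largest positive genotype ratio of the 10 genes at 7 dpi.

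Tapbp encodes tapasin, which holds empty class I molecules at the transporter. It stood at 126 FPKM in ApoE3 and 125 in ApoE4 mice at 7 dpi, and at 67.4 and 102 at 21 dpi. Its genotype ratio at 7 dpi was the closest to 1 of all members.

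Psmb8 and Psmb9 encode catalytic subunits that replace those of Psmb5 and Psmb6 in newly made proteasomes. Psmb8 stood at 19.4 FPKM in ApoE3 and 20.7 in ApoE4 mice at 7 dpi, and at 11.9 and 19.4 at 21 dpi. Psmb9 stood at 28.6 and 27.7 at 7 dpi. Psmb9 and Tap1 lie head to head, with 225 bases between their annotated start sites, and their RefSeq windows share 275 of 300 bases. Their genotype ratios at 7 dpi were both small, at a centred log2 ratio of 0.04 for Psmb9 and 0.22 for Tap1.

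Nlrc5, the activator of class I genes, stood at 40.8 FPKM in ApoE3 and 37.7 in ApoE4 mice at 7 dpi, and at 21.8 and 29.9 at 21 dpi. The order of the members was the same in both genotypes at 7 dpi from H2-K1 down to Psmb9, and only Tap1 and Psmb8 changed places below. At 21 dpi it ran B2m, H2-D1, H2-T23, Tapbp and Nlrc5 in both genotypes, with Tap2 and Psmb8 last.

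To compare the genotypes, the log2 ratio of ApoE3 to ApoE4 was taken with 1 FPKM added to each value. It was then centred on the median of all genes with a mean of at least 1 FPKM. That median was 0.00 at 7 dpi and -0.42 at 21 dpi, so at 21 dpi 93.8% of listed genes had a lower value in ApoE3. A gene counts as past the threshold when its centred ratio is at least 1.3-fold in either direction, or 0.38 on the log2 scale.

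At 7 dpi the centred log2 ratios were -0.12 for H2-K1, -0.17 for H2-D1, 0.11 for H2-T23 and -0.10 for B2m. They were 0.22 for Tap1, -0.07 for Tap2, 0.01 for Tapbp, -0.10 for Psmb8, 0.04 for Psmb9 and 0.11 for Nlrc5. The median was -0.03, with 5 genes above 0 and 5 below, and the quartiles of all genes stood at -0.12 and 0.12. None of the 10 was past the threshold higher in ApoE3, beside 3.59% of all genes, and none higher in ApoE4, beside 4.71%. No step of the pathway among the members, from proteasome to surface complex, differed between the genotypes by 1.3-fold at 7 dpi.

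At 21 dpi the centred log2 ratios were -0.09 for H2-D1, -0.13 for H2-T23, -0.20 for B2m and -0.05 for Tap2. They were -0.17 for Tapbp, -0.24 for Psmb8 and -0.02 for Nlrc5, with a median of -0.13. All 7 lay below 0, and the quartiles of all genes were -0.14 and 0.14. None of the 7 was past the threshold higher in ApoE3, beside 7.16% of all genes, and none higher in ApoE4, beside 7.93%. Without centring all 7 passed it higher in ApoE4, with a median of -0.55, and 59% of all genes did so too, while none passed it higher in ApoE3, beside 1.8%. Most of the raw excess in ApoE4 at 21 dpi is therefore shared with the whole table.

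**Figure D3:**
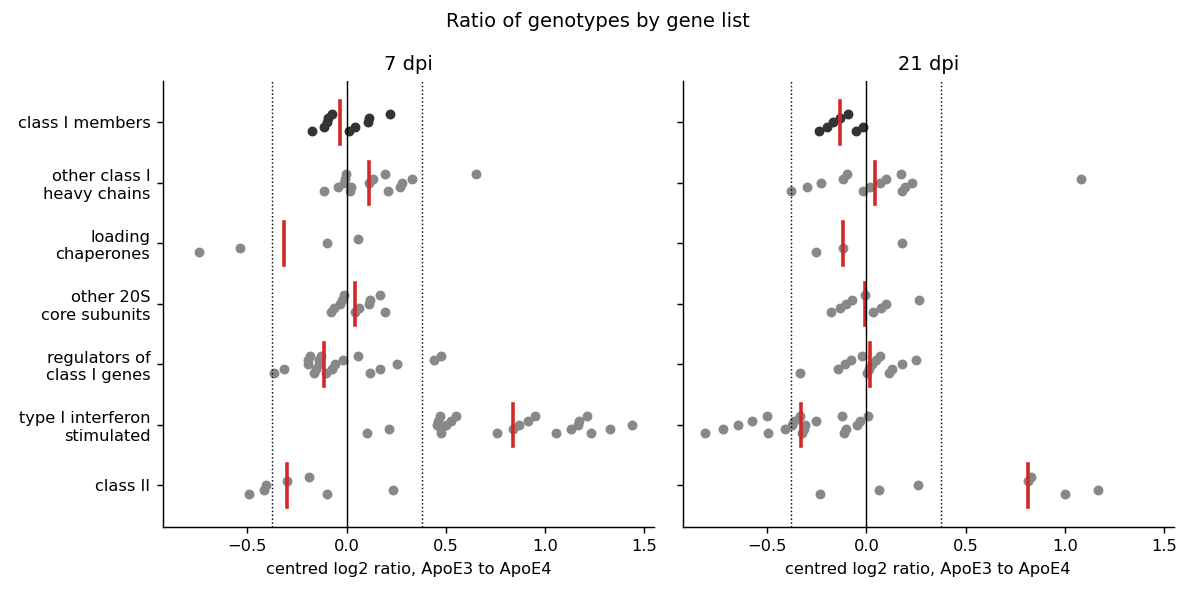
Centred log2 ratio of ApoE3 to ApoE4 for each gene with a mean of at least 1 FPKM, by list. Red bars are medians and dotted lines mark 1.3-fold. The members sit within the dotted lines at both time points, while interferon stimulated and class II genes reach beyond them.

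The members stayed level where genes that answer to type I interferon did not. Of 24 type I interferon stimulated genes, 23 are listed at 7 dpi, with a median centred log2 ratio of 0.84, and 21 of the 23 were past the threshold higher in ApoE3, beside 3.59% of all genes. Ifit3, the most abundant of them, stood at 373 FPKM in ApoE3 and 160.4 in ApoE4 mice at 7 dpi, a centred log2 ratio of 1.21. At 21 dpi it stood at 212 and 403, and the median of the 20 listed genes was -0.33, with 7 of 20 past the threshold higher in ApoE4, beside 7.93% of all genes. Without centring all 20 passed it higher in ApoE4 at 21 dpi, beside 59% of all genes, with a median of -0.75. The centred median shift of the interferon stimulated genes is thus wider than that of any class I member at either time. It is so by far at 7 dpi and little at 21 dpi, where Psmb8 had -0.24.

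The stretch before Ifit3 is printed for comparison with those above, since its genotype ratio at 7 dpi was past the threshold and theirs were not. It is chr19:34583364-34583445 on the plus strand of GRCm38.p6, from the same RefSeq table, with ISRE matches on the opposite strand in capitals.
Ifit3: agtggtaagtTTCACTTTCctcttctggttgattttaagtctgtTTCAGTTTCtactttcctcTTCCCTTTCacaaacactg

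Ifit3 holds 3 ISRE matches where B2m and H2-T23 hold 1 each. Of the interferon stimulated genes, 12 of 19 with a promoter entry hold an ISRE match and none holds the class I interferon response letters or the kappa B letters. Among the 12, Bst2 had a centred log2 ratio of 0.10 at 7 dpi and Rsad2 of 1.33, so a match did not go with 1 size of ratio. Any link between the number of matches and the genotype ratio was not tested. Of the other class I heavy chains, 5 of 15 with an entry hold the class I interferon response letters.

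Regulators of class I transcription moved in part with the interferon stimulated genes. Stat2, a signal transducer of the interferon receptors, stood at 17.3 FPKM in ApoE3 and 12.1 in ApoE4 mice at 7 dpi, a centred log2 ratio of 0.48. Irf1, which binds class I promoters, stood at 31.6 and 33.2 at 7 dpi and at 23.9 and 32.99 at 21 dpi, with centred log2 ratios of -0.07 and -0.02. Irf1 thus lay with the class I members and not with Stat2. The receptor genes Ifnar1 and Ifnar2 had centred log2 ratios of -0.32 and -0.36 at 7 dpi. Stat2 is not listed at 21 dpi, and the interferon genes Ifng and Ifnb1 are not listed at either time.

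Over the other 75 genes of the pathway, 54 had a mean of at least 1 FPKM at 7 dpi and their median centred log2 ratio was -0.01. Among those past the threshold were H2-T24 and Stat2, higher in ApoE3, and Calr, Pdia3 and Klra2, higher in ApoE4. At 21 dpi 42 such genes had a median of 0.02, with H2-Q5 higher in ApoE3 and Cd1d1 and Tpp2 higher in ApoE4. The wider pathway was level in its median, with these genes outside it.

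Among 15 other heavy chains at 7 dpi the median centred log2 ratio was 0.11. H2-T24, a non-classical chain, stood at 47.0 FPKM in ApoE3 and 29.5 in ApoE4 mice at 7 dpi and at 13.01 and 18.0 at 21 dpi, with centred log2 ratios of 0.65 and -0.02. H2-T22 stood at 200.1 and 173 at 7 dpi, above H2-T23 in both genotypes. H2-Q5 stood at 4.19 and 2.29 at 21 dpi, a centred log2 ratio of 1.08 at a low level. H2-T24 is the only class I chain that was past the threshold at 7 dpi.

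Calr and Pdia3, 2 of the 4 loading chaperones outside the members, were past the threshold higher in ApoE4 at 7 dpi, beside 4.71% of all genes. Calr, for calreticulin, stood at 300.1 FPKM in ApoE3 and 436 in ApoE4, a centred log2 ratio of -0.54, and Pdia3, for ERp57, at 68.3 and 115, a ratio of -0.74. Canx, for calnexin, stood at 569 and 609, a ratio of -0.10, and Tapbpl at 12.6 and 12.02, a ratio of 0.06. At 21 dpi Calr had a ratio of -0.12, Canx of -0.25 and Tapbpl of 0.18, and Pdia3 is not listed. Neither Canx, Tapbpl nor Tapbp shared the difference of Calr and Pdia3. Erap1, which trims peptides for class I, stood at 29.2 and 30.7 at 7 dpi and at 7.85 and 9.87 at 21 dpi, with ratios of -0.07 and 0.13.

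Several class II genes changed direction with time. Cd74, the invariant chain and the most abundant of them, stood at 72.3 FPKM in ApoE3 and 95.9 in ApoE4 mice at 7 dpi, and at 47.2 and 35.8 at 21 dpi. Over 7 listed class II genes of 10 the median centred log2 ratio was -0.30 at 7 dpi and 0.81 at 21 dpi. Past the threshold were 3 of 7 higher in ApoE4 at 7 dpi, beside 4.71% of all genes, and 4 of 7 higher in ApoE3 at 21 dpi, beside 7.16%. H2-DMb1, H2-Oa and H2-Ob passed at neither time, and H2-Oa went from 0.24 to -0.23. Without centring the class II median at 21 dpi was 0.39, with 4 of 7 past the threshold higher in ApoE3, beside 1.8% of all genes. H2-Oa then passed it higher in ApoE4, beside 59%. The centred class I medians of -0.03 and -0.13 differ little beside the centred class II medians. Without centring the class I medians were -0.03 and -0.55. Ciita, the class II counterpart of Nlrc5, is not listed at either time.

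Between 7 and 21 dpi the 7 listed members fell against the table in both genotypes. Levels at the time points may have been scaled separately, so each log2 ratio of 21 over 7 dpi is centred on the genes listed at both with a mean of at least 1 FPKM, with medians of 0.09 in ApoE3 and 0.53 in ApoE4. In ApoE3 it was -0.59 for H2-D1, -0.74 for H2-T23, -0.70 for B2m, -0.33 for Tap2, -0.98 for Tapbp, -0.75 for Psmb8 and -0.96 for Nlrc5. In ApoE4 it was -0.68 for H2-D1, -0.51 for H2-T23, -0.61 for B2m, -0.37 for Tap2, -0.82 for Tapbp, -0.62 for Psmb8 and -0.85 for Nlrc5. Tapbp and Nlrc5 fell most and Tap2 least in either genotype.

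The median was -0.74 in ApoE3 and -0.62 in ApoE4. Past the threshold toward 7 dpi were 6 of 7 in ApoE3, beside 27.7% of all genes, and 6 of 7 in ApoE4, beside 28.6%. Without centring 6 of 7 passed in ApoE3, beside 23.6% of all genes, and 0 of 7 in ApoE4, beside 10.9%, so the ApoE4 count is a statement relative to the table. In ApoE4 the ratio without centring was 0.02 for H2-T23 and 0.16 for Tap2, so their direction turned. None was past it toward 21 dpi, beside 26.6% in ApoE3 and 26.2% in ApoE4. Because 3 members have no row at 21 dpi, these counts cover only the listed genes. The interferon stimulated genes parted by genotype over the same interval, with 19 of 20 past the threshold toward 7 dpi and a median of -1.01 in ApoE3, against 5 of 20, 6 past it toward 21 dpi and a median of 0.08 in ApoE4. Without centring 1 of the 20 passed toward 7 dpi in ApoE4, beside 10.9% of all genes, and 13 toward 21 dpi. Their median in ApoE4 was then 0.60, beside 0.53 over all genes. As 0.53 is itself past the threshold of 0.38, most of all genes also passed toward 21 dpi without centring. The 13 other heavy chains listed at both times were divided, with centred medians of -0.18 in ApoE3 and -0.01 in ApoE4. Past the threshold toward 7 dpi were 4 of 13 in ApoE3 and 5 of 13 in ApoE4, beside the shares of 27.7% and 28.6% given above, with 1 and 2 past it toward 21 dpi. Without centring 2 of 13 were past it toward 7 dpi in ApoE4, beside 10.9% of all genes, and 7 toward 21 dpi, as were most of all genes. The median of these chains in ApoE4 was then 0.52, beside 0.53 over all genes, so their rise without centring is shared with the whole table. The centred ratios were -1.86 and -1.21 for H2-T24, -1.20 and -1.28 for Mr1, -0.84 and -0.73 for H2-Q1, and 1.61 and 1.72 for H2-Bl.

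The constitutive proteasome went the opposite way. Psmb5 rose from 73.9 to 162 FPKM in ApoE3 and from 81.7 to 186 in ApoE4. Psmb6 rose from 128 to 219.5 in ApoE3 and from 125 to 283, and Psmb7 from 177 to 312 in ApoE3 and from 164 to 436. The median centred log2 ratio of 21 over 7 dpi for these 3 genes was 0.72 in ApoE3 and 0.65 in ApoE4. All 9 other core subunits listed at both times lay above 0 as well, with medians of 0.52 in each genotype, so Psmb8 went against the 12 other 20S genes compared. Psmb9, Psmb10, Psmb1 and Psmb4 have no row at 21 dpi.

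The ratio of Psmb8 to Psmb5 within a group does not depend on any scaling. It was 0.262 in ApoE3 and 0.254 in ApoE4 at 7 dpi, and 0.0733 and 0.104 at 21 dpi. Of the 100-base stretches of Psmb5, 22.2% occur unchanged in another gene, which limits this denominator. Set against Psmb6, Psmb8 went from 0.152 to 0.0540 in ApoE3 and from 0.166 to 0.0684 in ApoE4. At 7 dpi Psmb9 stood at 0.224 of Psmb6 in ApoE3 and 0.222 in ApoE4, and Psmb10 at 0.338 of Psmb7 and 0.332. The 3 exchange pairs thus agreed between genotypes at 7 dpi, and Psmb8 was lower against Psmb5 and Psmb6 by 21 dpi in both genotypes. At 21 dpi both of these Psmb8 ratios were higher in ApoE4 than in ApoE3. Psmb10 stood at 60.0 FPKM and 54.4 at 7 dpi, above Psmb8 and Psmb9, and is not listed at 21 dpi. The regulator genes Psme1 and Psme2 stood at 17.9 and 180.5 in ApoE3 and at 17.8 and 182 in ApoE4 at 7 dpi, and Psme1 at 22.8 in ApoE3 and 34.4 in ApoE4 at 21 dpi.

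**Figure D4:**
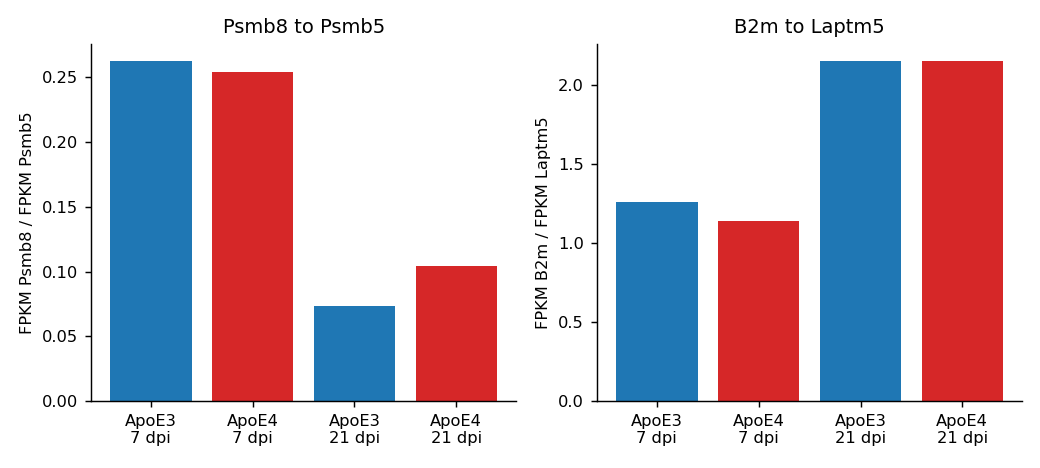
Ratios of FPKM taken within each group. Left, the immunoproteasome gene Psmb8 to the gene it replaces, Psmb5. Right, B2m to the leukocyte gene Laptm5.

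Class I genes are high in leukocytes, and leukocyte markers moved over the same interval. All 5 leukocyte markers are listed at 7 dpi, with a summed level of 1464 FPKM in ApoE3 and 1740.0 in ApoE4, Lcp1 the most abundant, and a median centred log2 ratio of -0.26. Ptprc stood at 178 and 215 at 7 dpi. Lcp1 and Laptm5, the 2 listed at both times, summed to 757 in ApoE3 and 909 in ApoE4 at 7 dpi and to 247 and 377 at 21 dpi. B2m stood at 1.26 times Laptm5 in ApoE3 and 1.14 times in ApoE4 at 7 dpi, and at 2.15 times in both at 21 dpi. So B2m fell less than the leukocyte genes over time, and the part of leukocyte markers in the class I result was not tested.

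Macrophage markers fell furthest. All 11 are listed at 7 dpi, at a sum of 7389 FPKM in ApoE3 and 9638 in ApoE4, and 7 at 21 dpi, with Lyz2 the most abundant at both times. Over those 7 the sum went from 6048 to 367 in ApoE3 and from 7888 to 692 in ApoE4. Lyz2 stood at 4522 and 6076 at 7 dpi and at 212 and 426 at 21 dpi. Cd68, Mrc1 and Ccr2 are among those not listed at 21 dpi. The macrophage decline of -3.97 in ApoE3 and -3.50 in ApoE4 in median centred log2 ratio far exceeds that of the class I genes, and its part in theirs was not tested.

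Microglial markers fell less than macrophage markers in their medians. Of 9, 4 are listed at both times, and their sum went from 288 to 222 FPKM in ApoE3 and from 289.7 to 389 in ApoE4, with Siglech the most abundant. Siglech alone went from 104 to 237 in ApoE4, while Olfml3 went from 59.8 to 28.6. The median centred log2 ratio of the 4 was -0.61 in ApoE3 and -0.51 in ApoE4 beside class I medians of -0.74 and -0.62. Over the same interval the astrocyte median was -0.73 in ApoE3 and -0.27 in ApoE4, and the class II median -0.69 and -1.92. P2ry12 and Cx3cr1 are not listed. B2m stood at 6.45 times Tmem119 in ApoE3 and 6.004 times in ApoE4 at 7 dpi, and at 6.56 and 6.34 times at 21 dpi. Its ratio to Siglech went from 4.21 to 2.499 in ApoE3 and from 4.84 to 1.99 in ApoE4, and its ratio to Olfml3 from 8.37 to 17.8 and from 8.395 to 16.5. Set against single microglial genes, B2m thus held level, fell or rose with the gene chosen, and the part of microglia was not tested.

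Astrocyte genes, all 6 listed at both times, summed to 17051 FPKM in ApoE3 and 16607 in ApoE4 mice at 7 dpi and to 10273 and 18865 at 21 dpi, with Gfap highest. B2m stood at 0.0379 of Gfap in ApoE3 and 0.0405 in ApoE4 at 7 dpi, and at 0.0374 and 0.0308 at 21 dpi. Endothelial genes, 7 listed at 7 dpi, summed to 263 and 275, with Flt1 highest, and the 6 at 21 dpi to 259 and 306. Neuronal genes, 9 listed at 7 dpi, summed to 5931 and 4680.0 with Snap25 highest, and the 8 listed at 21 dpi to 8624 and 12752. Oligodendrocyte genes, 4 of 7 listed at 7 dpi, summed to 126973 and 134118 with Mbp highest, and Mag is not listed. The astrocyte, neuronal and oligodendrocyte lists thus summed to more FPKM than the leukocyte list in every group. At 7 dpi the macrophage list, at 7389 in ApoE3 and 9638 in ApoE4, stood above the neuronal list. The part of these cell types in the class I values was not tested.

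Dendritic cell genes, 4 of 7 listed at 7 dpi, summed to 63.6 FPKM in ApoE3, with Zbtb46 highest, and 75.1 in ApoE4, with Itgax highest. Xcr1, Clec9a and Ccr7, which mark the dendritic cells that prime T cells, are not listed. Neutrophil genes, 4 of 7 at 7 dpi, summed to 507 and 604, nearly all of it Csf3r at 485 and 589, and Ly6g is not listed. S100a8 and S100a9 were past the threshold higher in ApoE3, with centred log2 ratios of 0.53 and 0.72, and Mmp8 higher in ApoE4, with -0.52, while Csf3r had -0.28. The list's median was 0.12. Their part was not tested.

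The cells that read class I were barely visible. Of 14 T cell and NK cell genes only Lck is listed at 7 dpi, at 11.5 FPKM in ApoE3 and 4.79 in ApoE4, and 3 at 21 dpi, where Lck stood at 11.05 and 8.06. Cd8a, Cd8b1, Cd3e, Gzmb and Ncr1 are not listed at either time. Among 7 receptors for class I, Pirb stood at 57.6 FPKM and 68.2 at 7 dpi and at 8.72 and 10.9 at 21 dpi, and Klra2 at 4.95 and 8.12 at 7 dpi. Of 5 B cell genes only Cd79b is listed, at 2.46 and 3.28 at 7 dpi. A myeloid receptor for class I was thus the only one of these genes above 10 FPKM at 7 dpi apart from Lck, in tissue whose T cell markers are largely not listed.

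The genes outside all lists with the pattern nearest to the members' medians were Katna1, Strap, Wdpcp, Pdcl and Acadvl, by Euclidean distance over the centred ratios at 7 and 21 dpi among 7945 genes with a mean of at least 10 FPKM at both times. Their distances ran from 0.00456 for Katna1 to 0.00809 for Acadvl. Of those 7945 genes, 32.1% lay as near to the medians as the farthest member listed at both times. The genotype pattern of class I is therefore a common one in the table.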

How the data were processed

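RNA of 4 groups was measured, 1 value per gene and group. The authors aligned reads with STAR 2.5.4b (Bowtie2 2.1.10 and SAMtools 0.1.7 are also named) and deposited FPKM plus 1 from Cuffdiff 1.3.0. The genome build and annotation are not given in the sources used here. The authors' p-value, q-value and fold columns and their table of selected genes were not used. Value columns of no sample: 0. Row names were followed for genotype, against the column headers.

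After subtracting 1, log2 ratios were taken with a pseudocount of 1 and centred on genes with a mean of at least 1 FPKM. The threshold was 1.3-fold. No test was run. By the paper, every sample was reduced to the lowest read count of any sample before alignment. It reports a lower alignment rate for 1 replicate, whose group its text does not name. Depth per gene is unknown. Symbols on 2 rows, 2 at each time point, were left out. Members and lists were chosen with earlier results of these data known. Code was tested on simulated data. Alternatives were no centring, other centring genes, pseudocounts of 0.1 and 0.01, and folds of 1.2 and 1.5. Python 3.11.15, numpy 2.4.6, pandas 2.3.3 and matplotlib 3.10.9 were used, with Biopython 1.88 for the global alignment of promoter stretches.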

Additional observations from a re-analysis of the deposited data

Results flagged for a closer look

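A difference between the time points flagged 3 class II genes that serve as the comparison for class I: their centred log2 ratios of ApoE3 to ApoE4 passed 1.3-fold in opposite directions at 7 and 21 dpi. For H2-Ab1 the ratio was -0.41 at 7 dpi and 0.83 at 21 dpi, a difference of -1.24. For H2-Eb1 it was -0.49 and 1.16, a difference of -1.66. For Cd74 it was -0.40 and 0.81, a difference of -1.22. Without centring the ratios at 21 dpi were 0.41 for H2-Ab1, 0.74 for H2-Eb1 and 0.39 for Cd74, beside a threshold of 0.38. With 1 value per group the difference was not tested. No class I member was flagged.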

How the results depend on the processing

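A median or a single member's ratio counts as the same when it moves by under 0.1 on the log2 scale, and a count when it stays within 1.5 times. Without centring, the median of the members at 21 dpi moved from -0.13 to -0.55, and the members past the threshold at 21 dpi from 0 to 7 of 7. The median of 21 over 7 dpi in ApoE4 moved from -0.62 to -0.094 without centring. These moves follow from the median of all genes that centring takes away. Every other choice tried left the medians, and the counts past the threshold at 7 and at 21 dpi, the same, including folds of 1.2 and 1.5 and the medians without the heavy chains. Of 17 single member ratios of the genotypes, 7, all at 21 dpi, moved without centring and none under another choice. For 21 over 7 dpi, counts and single members were run under the same choices, chosen after seeing the data. In ApoE4 without centring the count toward 7 dpi went from 6 to 0 of 7, H2-T23 reversed from -0.51 to 0.016, and Tap2, not past the threshold, turned from -0.37 to 0.16. The other choices left these counts within 1.5 times and these ratios the same, as did every choice in ApoE3. With 1 value per group no spread between mice is known, depth per gene is unknown, and the number of reads shared between class I loci was not measured. Shared replicate numbers do not exist here, so no block was fitted.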

Other observations

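The median FPKM of all listed genes at 21 dpi was 26.9 in the ApoE3 group and 36.8 in the ApoE4 group, while at 7 dpi the medians of the groups differed by under 1 FPKM.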
